A study of Rattus norvegicus with 48 samples.

Results

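The miR-30 family is described here across 4 segments of the rat nephron, the tubule unit of the kidney. Members were the measured mature miRNAs named miR-30a, miR-30c, miR-30d or miR-30e, on either arm of the hairpin. There were 9 of them among 188 miRNAs: rno-miR-30a-5p, rno-miR-30a-3p, rno-miR-30c-5p, rno-miR-30c-1-3p, rno-miR-30c-2-3p, rno-miR-30d-5p, rno-miR-30d-3p, rno-miR-30e-5p and rno-miR-30e-3p. miR-30b was not among the 188 miRNAs. Small RNA was sequenced from the glomerulus, the proximal tubule, the thick ascending limb (part of Henle's loop) and the collecting duct, cut by laser out of frozen kidney sections 8 µm thick. The study asked how miRNAs differ along the healthy nephron. All groups came from the same 3 untreated male Sprague-Dawley rats aged 6 months, so no group is a treatment or a disease.

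The table held 2 glomerulus libraries, from rats 1 and 3, and 1 library per rat, 3 in all, of each tubule segment. Each of the 11 libraries was run on 4 flow cells, and the 4 runs were averaged, so that n counts rats. A further glomerulus library, marked by the submitters as left out, was not analysed. Its label also names rat 3, and no glomerulus library is labelled rat 2. Rat labels were used as given, and the rat block and the permutations within rats rest on them. Tubule segments were picked by an antibody to a marker protein: glutathione S-transferase marked proximal tubule, Tamm-Horsfall protein marked thick ascending limb, and aquaporin-2 marked collecting duct. A histochemical stain served for glomeruli, so segment and kind of stain cannot be told apart. Values are TMM-normalized signals as the authors deposited them. From the step between low values, a library held 147996 to 1296995 reads over the 188 miRNAs. The summed value of a library ranged between 77457 and 255518, and was lowest in the glomerulus library of rat 3.

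Marker miRNAs were checked against the labels. The proximal tubule markers miR-192-5p and miR-194-5p summed to values of 21130 to 26367 in proximal tubule and to 777 to 4280 in the libraries of the other segments. The 4 measured epithelial markers of the miR-200 family summed to 36.1 to 128 in the glomerulus, against 412 to 1595 in the tubule libraries, and none of them was at 0. The 3 endothelial markers summed to 4299 to 6316 in the glomerulus and 1189 to 3230 in the tubules. The 2 smooth muscle and mesangial markers summed to 10382 to 16388 in the glomerulus, against 4781 to 8080 in the tubules. The 2 of 7 blood cell markers that were measured summed to 78.7 to 117 in the glomerulus and 24.1 to 118 in the tubules. No defining miRNA marker of the thick ascending limb or the collecting duct was listed. The part of the cell mixture in any result below was not tested, and in captured tissue fewer cells of a type and less RNA per cell cannot be told apart.

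A miRNA is cut from a hairpin transcript, whose 5p and 3p arms can each be loaded into an Argonaute protein to repress mRNAs that pair with its seed, bases 2 to 8. The miR-30 family is known as abundant in kidney. In podocytes, the filtering epithelial cells of the glomerulus, miR-30 is known to restrain Notch signalling, and in the Xenopus pronephros to restrain the transcription factor Lhx1.

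RefSeq held mature sequences for 6 of the 9 members, and these are shown because they set which members share targets and which can be confused in counting. Capitals mark the seed, and sequences run 5′ to 3′.
miR-30a-5p: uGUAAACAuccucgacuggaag
miR-30e-5p: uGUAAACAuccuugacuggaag
miR-30c-5p: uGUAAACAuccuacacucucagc
miR-30a-3p: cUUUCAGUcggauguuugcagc
miR-30c-1-3p: cUGGGAGAggguuguuuacucc
miR-30c-2-3p: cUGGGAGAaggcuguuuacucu

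The 3 printed 5p arms shared the seed GUAAACA, held by none of the others among the 172 miRNAs of the table that had a RefSeq sequence. miR-30a-5p and miR-30e-5p differed by 1 base, C13U, counted from the 5′ end with the base of miR-30a-5p first. The 3p arms carried other seeds, UUUCAGU in miR-30a-3p and UGGGAGA in both miR-30c 3p arms. Those 2 arms differed at 3 bases, written G9A, U12C and C22U with the base of miR-30c-1-3p first. Among the printed sequences, the arms of 1 gene therefore have unlike seeds, while 5p arms of different genes have the same one.

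The hairpins lie in pairs in the RefSeq annotation of the rat assembly GRCr8. Mir30a (chr9:33233941-33234011, plus strand) and Mir30c2 (chr9:33253682-33253765, plus strand) have starts 19741 bases apart. Mir30a overlapped no other annotated gene, and Mir30c2 overlapped the pseudogene Rbx1-ps1 and the long non-coding RNA gene LOC134480562. Mir30c1 (chr5:139634455-139634543, minus strand) and Mir30e (chr5:139637450-139637541, minus strand) have starts 2995 bases apart, and both overlap Nfyc, which encodes a subunit of the transcription factor NF-Y. Whether they are exonic or intronic was not analysed here. miR-30c-5p comes with the same sequence from Mir30c1 on chromosome 5 and Mir30c2 on chromosome 9, while each miR-30c 3p arm belongs to 1 of the hairpins. Both 3p arms, and not the 5p arm, therefore tell the miR-30c loci apart.

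The family took 6.63% ± 3.28 of the summed values in the glomerulus (SD, n = 2), 2.93% ± 0.109 in proximal tubule, 4.02% ± 0.226 in thick ascending limb and 3.93% ± 0.0724 in collecting duct (n = 3 each). The glomerulus mean stood on unlike libraries, 4.32% in rat 1 and 8.95% in rat 3, though both lay above the highest tubule library at 4.20%. The 3 proximal tubule libraries, at 2.82% to 3.04%, lay below all other libraries. These shares are descriptions, and depend on the other miRNAs of a library. Most of each share was miR-30a-5p, which made up 69.5% ± 7.75 of the family in the glomerulus, 59.4% ± 1.82 in proximal tubule, 66.7% ± 1.49 in thick ascending limb and 66.6% ± 0.576 in collecting duct. The 5p arms together held 6.06% ± 3.19 of the summed values in the glomerulus, 2.39% ± 0.0741 in proximal tubule, 3.39% ± 0.209 in thick ascending limb and 3.22% ± 0.122 in collecting duct. The 3p arms together held 0.573% ± 0.0855, 0.535% ± 0.0402, 0.629% ± 0.0310 and 0.707% ± 0.0601 in the same order of segments. The glomerulus share therefore exceeded the tubule shares in the 5p arms and lay among them in the 3p arms.

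**Figure D1:**
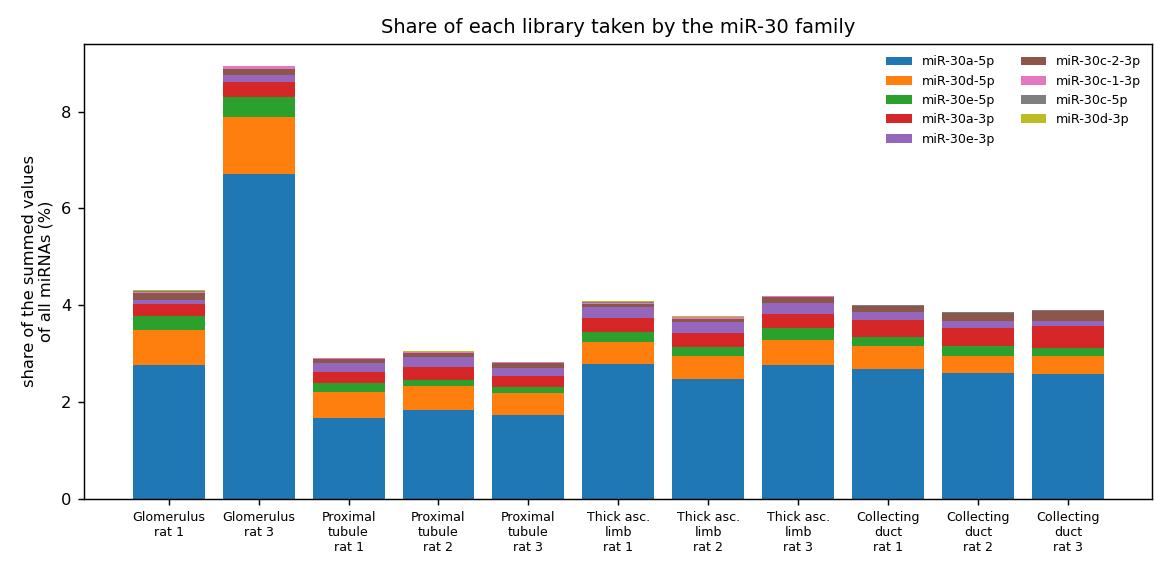
Share of the summed values of 188 miRNAs (%, vertical axis) held by each miR-30 member in the 11 libraries, with 1 stacked bar per segment and rat. The glomerulus bar of rat 3 reaches 8.95% and the proximal tubule bars are the shortest, at 2.82% to 3.04%.

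Among the 5p arms, miR-30a-5p was the most abundant member in every library. Its values were 4558 and 5195 in the glomerulus of rats 1 and 3. They were 2493, 3177 and 3618 in proximal tubule of rats 1, 2 and 3, 4000, 2870 and 4759 in thick ascending limb, and 4932, 6616 and 4815 in collecting duct. As deposited, the collecting duct and glomerulus libraries overlapped, and the proximal tubule libraries all lay below both. By share of the summed values the glomerulus, at 2.76% and 6.71%, lay above collecting duct, at 2.57% to 2.68%. It then overlapped thick ascending limb, at 2.48% to 2.79%, and proximal tubule was again lowest, at 1.67% to 1.83%. miR-30a-5p ranked between 5 and 12 of 188 in every library.

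miR-30d-5p, a further 5p arm, had values of 1214 and 912 in the glomerulus. It had 813, 854 and 990 in proximal tubule, 641, 550 and 876 in thick ascending limb, and 876, 935 and 706 in collecting duct. As deposited, all segments overlapped with at least 1 other, and the glomerulus mean of 1063 ± 213 was the highest. By share of the summed values the glomerulus libraries held 0.735% and 1.18%, above all tubule libraries, at 0.366% to 0.545%. miR-30e-5p, which differs from miR-30a-5p by 1 base, had 469 and 326 in the glomerulus. It had 272, 235 and 253 in proximal tubule, 306.9, 211.7 and 429.2 in thick ascending limb, and 350, 499 and 318 in collecting duct. As deposited, its proximal tubule libraries lay below those of the glomerulus and the collecting duct, as for miR-30a-5p. By share of the summed values proximal tubule, at 0.120% to 0.182%, overlapped collecting duct, at 0.170% to 0.195%. The glomerulus libraries, at 0.284% and 0.421%, then lay above all tubule libraries, the highest of them at 0.250%. miR-30a-5p stood 12.8 ± 4.39 times above miR-30e-5p in the glomerulus, 12.3 ± 2.75 in proximal tubule, 12.6 ± 1.30 in thick ascending limb and 14.2 ± 0.945 in collecting duct, and whether this ratio differs between segments was not tested. Library preparation can favour 1 sequence over another, so ratios between members are compared across segments and not read as molar amounts.

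Among the 3p arms, miR-30a-3p comes from the same hairpin as miR-30a-5p. It had 400 and 240 in the glomerulus of rats 1 and 3. It had 336, 461 and 476 in proximal tubule, 405, 337 and 482 in thick ascending limb, and 628, 966 and 833 in collecting duct of rats 1, 2 and 3. Every collecting duct library lay above every library of the other segments. miR-30c-2-3p, from the neighbouring hairpin on chromosome 9, had 220 and 97.2 in the glomerulus. It had 116, 159 and 210 in proximal tubule, 92.9, 90.1 and 211.1 in thick ascending limb, and 225, 433 and 383 in collecting duct. The collecting duct libraries were again the 3 highest as deposited, the lowest of them by a narrow margin over 220. By share of the summed values that library, of rat 1, held 0.122%. It then lay below both glomerulus libraries, at 0.133% and 0.126%, and thick ascending limb of rat 3, at 0.123%. Over the 11 libraries the log2 values of miR-30a-3p and miR-30c-2-3p had a Pearson r of 0.90 and a Spearman rho of 0.82, the highest r among the 36 pairs of members. These points share libraries and their scaling.

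miR-30e-3p, from the chromosome 5 hairpin that overlaps Nfyc, was low in the glomerulus, with 159 and 114. It had 273, 344 and 337 in proximal tubule, 327, 252 and 389 in thick ascending limb, and 310, 347 and 195 in collecting duct. Both glomerulus libraries lay below all tubule libraries as deposited. By share of the summed values they held 0.0966% and 0.147%, and overlapped collecting duct, at 0.168%, 0.136% and 0.104%. miR-30c-1-3p, from the neighbouring hairpin, was far lower, with means of 33.7 ± 0.262 in the glomerulus, 34.7 ± 9.69 in proximal tubule, 36.5 ± 4.0 in thick ascending limb and 24.7 ± 6.30 in collecting duct. As deposited, its collecting duct libraries, at 18.9 to 31.4, were lower than those of the thick ascending limb, at 32.4 to 40.4. They overlapped those of the proximal tubule, at 23.8 to 42.2. By share of the summed values they held 0.0101% to 0.0129%, below every library of the other segments, the lowest of which held 0.0159%.

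The least abundant members were miR-30c-5p and miR-30d-3p. miR-30c-5p had 36.4 and 7.63 in the glomerulus, 8.28 to 16.5 in proximal tubule, 9.85 to 26.5 in thick ascending limb and 14.1 to 36.2 in collecting duct. These rested on 12 to 161 reads a library, and runs of 1 library had a median log2 SD of 0.867. miR-30d-3p had 32.6 and 5.37 in the glomerulus, 7.73 to 15.8 in proximal tubule, 2.59 to 18.6 in thick ascending limb and 4.85 to 22.9 in collecting duct, from 7 to 151 reads. At this depth no order of segments could be read for either. For miR-30a-5p, read 4238 to 36612 times a library, the run SD was 0.133. Its log2 SD between rats was 0.125 in the glomerulus and 0.255 to 0.371 in the tubule segments.

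**Figure D2:**
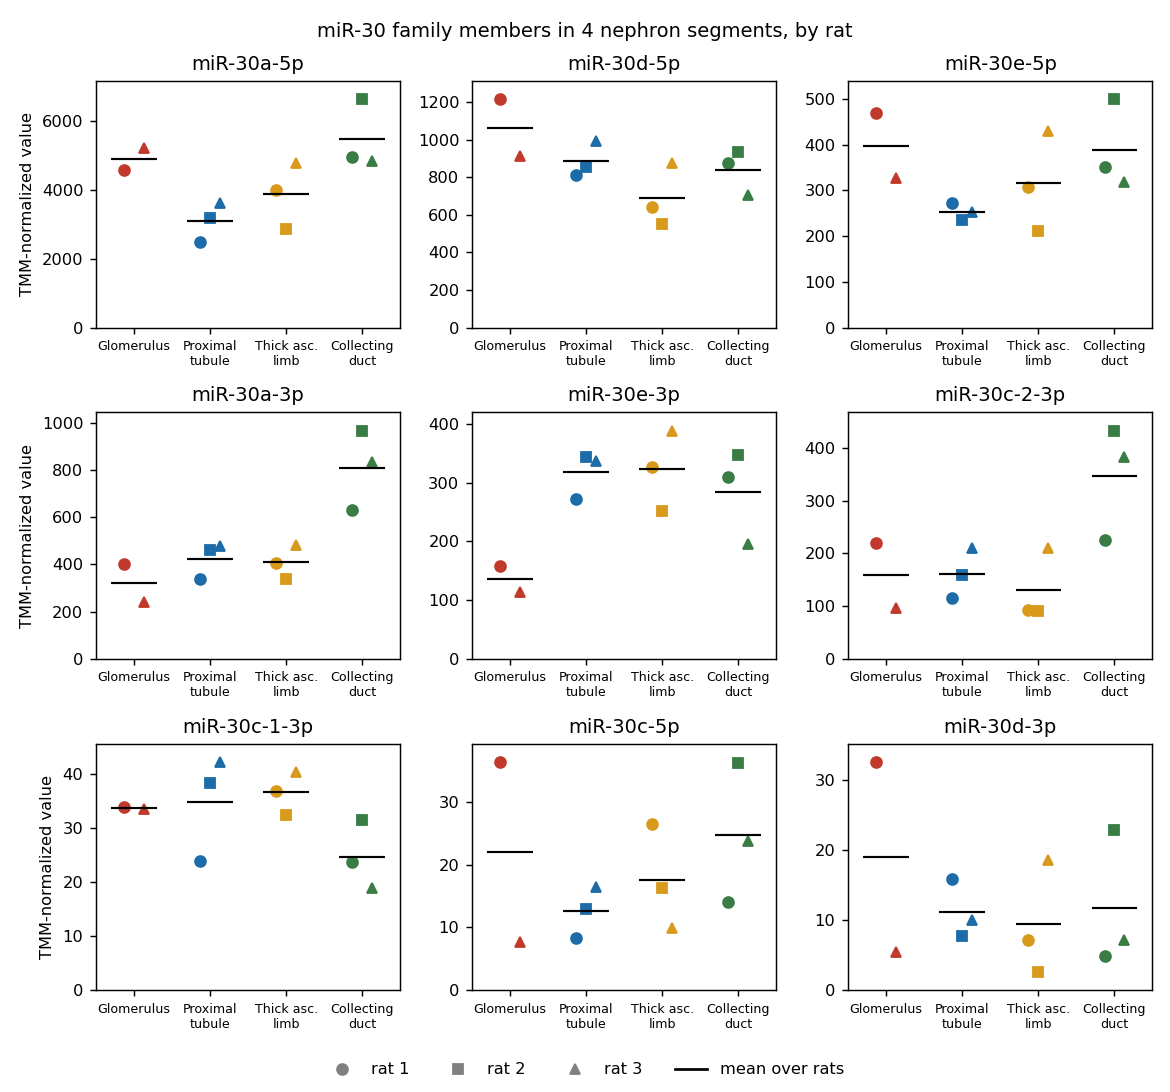
TMM-normalized value (vertical axes, linear and starting at 0) of the 9 miR-30 members in each library, by segment, with the marker shape giving the rat and the line the mean over rats. On this deposited scale miR-30a-3p and miR-30c-2-3p are highest in the 3 collecting duct libraries, and miR-30e-3p is lowest in the 2 glomerulus libraries.

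Differences between segments were tested with limma on log2(value + 1) over all 188 miRNAs, with rat as a block and Benjamini-Hochberg adjustment at 0.05. Fold changes on this scale understate those of low miRNAs. By the F-test over 4 segments 0 of 9 members differed, against 24.5% of all miRNAs, and 1 member, miR-30c-2-3p, had an unadjusted p below 0.05. Its segment means spanned 1.46 on the log2 scale (adjusted p = 0.11 by limma). The median span of the members was 0.82, against 1.69 over all miRNAs. In the pairwise comparisons limma likewise called 0 of 9 members. The share of all miRNAs called was 17.6% for proximal tubule against glomerulus, 7.98% for proximal tubule against thick ascending limb, 10.1% for proximal tubule against collecting duct, 11.2% for glomerulus against thick ascending limb, 14.9% for glomerulus against collecting duct and 2.13% for thick ascending limb against collecting duct. Unadjusted p-values below 0.05 numbered 1, 0, 1, 1, 1 and 2 members in that order. With 9 members, such shares give few calls, and a missed threshold does not show that levels were alike.

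The glomerulus was then set against the mean of the 3 tubule segments. Here 0 of 9 members passed, against 19.7% of all miRNAs, and 1 had an unadjusted p below 0.05. That member was miR-30e-3p, with a log2 difference of -1.15 ± 0.51 (SE; 95% interval -2.14 to -0.15, adjusted p = 0.10 by limma). As deposited, but not by share of the summed values, miR-30e-3p was lower in both glomerulus libraries than in all 9 tubule libraries. Without the glomerulus library of rat 1 its difference was -1.37. miR-30a-3p differed by -0.70 ± 0.48, and by -1.27 without that library. miR-30c-2-3p differed by -0.35, and by -1.41 without it. Without the glomerulus library of rat 3 the differences were -0.92 for miR-30e-3p, -0.13 for miR-30a-3p and 0.71 for miR-30c-2-3p, so the last of them changed sign. Each of these refits leaves 1 glomerulus library, so its calls are not read here. The library of rat 3 had the lowest summed value, 77457. The 5p arms had differences of 0.28 ± 0.45 for miR-30a-5p, 0.38 ± 0.46 for miR-30d-5p and 0.32 ± 0.50 for miR-30e-5p, with adjusted p between 0.62 and 0.74. Without the glomerulus library of rat 1 those of miR-30d-5p and miR-30e-5p were 0.10 and 0.05, and without that of rat 3 they were 0.66 and 0.60. The median difference was 0.28 over the members and -0.56 over all miRNAs.

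That comparison depended on how libraries are scaled, and both the median of all miRNAs and the standard errors moved between scalings. The median was -0.08 with the same total per run, -0.20 with median-of-ratios scaling and 0.02 after quantile normalization. The SE of miR-30a-5p was 0.45 as deposited, and 0.23, 0.26 and 0.24 in that order. Which of these moved the calls was not tested. With the same total per run, 3 of 9 members rose in the glomerulus, against 31.4% of all miRNAs called in either direction. They were miR-30a-5p, with a log2 difference of 0.89 ± 0.23 (SE, adjusted p = 0.0100), miR-30d-5p, with 0.99 ± 0.22 (adjusted p = 0.0024), and miR-30e-5p, with 0.94 ± 0.26 (adjusted p = 0.014, all by limma). With median of ratios the same 3 members rose, by 0.77, 0.87 and 0.82, against a background of 29.8%. After quantile normalization 0 passed, against 24.5%, with differences of 0.44, 0.91 and 0.87 and adjusted p of 0.23, 0.063 and 0.064. Over all miRNAs the calls split into 9 higher and 28 lower in the glomerulus as deposited, 31 and 28 with the same total, 25 and 31 with median of ratios, and 25 and 21 after quantile normalization. Under all 4 scalings the differences of these 3 members were above 0 and those of miR-30a-3p and miR-30e-3p were below 0, and miR-30c-2-3p alone changed sign.

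**Figure D3:**
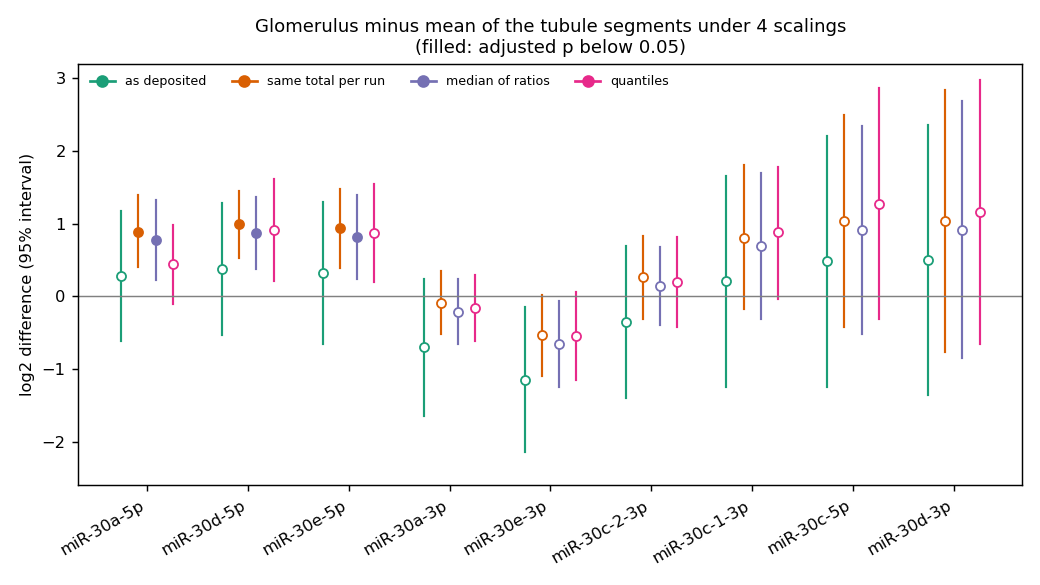
Glomerulus minus the mean of the tubule segments (log2 difference, vertical axis) for the 9 members under 4 scalings of the libraries. Points are limma estimates, lines 95% intervals, and filled points have an adjusted p below 0.05. With the same total per run miR-30a-5p, miR-30d-5p and miR-30e-5p lie at 0.89, 0.99 and 0.94, and miR-30e-3p at -0.53.

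The glomerulus libraries spread more than the others. Over the 65 miRNAs averaging 100 or more, the between-rat SD of log2 values had a median of 0.811 in the glomerulus, and of 0.284 in proximal tubule, 0.343 in thick ascending limb and 0.344 in collecting duct. A fit to all libraries shares 1 spread, so the 9 tubule libraries were also fitted alone, with the same estimates and smaller errors. Proximal tubule against collecting duct then called 3 of 9 members, against 21.8% of all miRNAs. miR-30a-5p fell in proximal tubule, by 0.82 on the log2 scale (SE 0.29, adjusted p = 0.026 by limma), to a mean of 3096 ± 567 there, against 5454 ± 1007 in collecting duct. miR-30a-3p fell by 0.92 (SE 0.32, adjusted p = 0.019), to 425 ± 77.1 in proximal tubule, against 809 ± 170 in collecting duct. miR-30c-2-3p fell by 1.09 (SE 0.37, adjusted p = 0.019), to 162 ± 47.5 in proximal tubule, against 347 ± 109 in collecting duct.

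In thick ascending limb against collecting duct the tubule fit called 2 of 9 members, against 13.8% of all miRNAs. miR-30c-2-3p fell by 1.46 on the log2 scale in thick ascending limb (SE 0.37, adjusted p = 0.0019 by limma), to 131 ± 69.1, against 347 ± 109 in collecting duct. miR-30a-3p fell by 0.98 (SE 0.32, adjusted p = 0.019), to 408 ± 72.7 in thick ascending limb, against 809 ± 170 in collecting duct. In proximal tubule against thick ascending limb 0 of 9 were called, as also at an unadjusted p below 0.05, against 20.7%. On the deposited scale, all 3 members called in these tubule fits are cut from the Mir30a and Mir30c2 hairpins of chromosome 9. The chromosome 5 members miR-30e-5p, miR-30e-3p and miR-30c-1-3p were not called, with differences of -0.57 ± 0.34, 0.20 ± 0.34 and 0.48 ± 0.61 for proximal tubule against collecting duct. miR-30c-5p, which comes from both chromosomes, was not called either, at -1.20 ± 0.79. Nor were miR-30d-5p, at 0.08 ± 0.30, and miR-30d-3p, at 0.07 ± 0.88. With 9 members the calls are few, and whether the pairs of hairpins differ from each other was not tested. Rescaled tubule fits of proximal tubule against thick ascending limb called other numbers. They called 1 member with the same total, 2 with median of ratios and 3 after quantile normalization. The statements on chromosomes here do not cover those calls.

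These calls have limits. The 3 calls for proximal tubule against collecting duct held under the 3 other scalings, but all were lost without any 1 proximal tubule library, without the collecting duct library of rat 1 or of rat 2, and without a variance trend. miR-30a-5p was lost as well without the thick ascending limb library of rat 3 (adjusted p = 0.051). miR-30c-2-3p in thick ascending limb against collecting duct passed without each library in turn except the collecting duct library of rat 2 (adjusted p = 0.051), and was lost after quantile normalization (0.064) and without a variance trend (0.21). miR-30a-3p passed under none of the 3 other scalings there, at -0.44, -0.53 and -0.61, nor without a variance trend (0.22), and was lost without any 1 of 6 of the 9 tubule libraries.

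**Figure D4:**
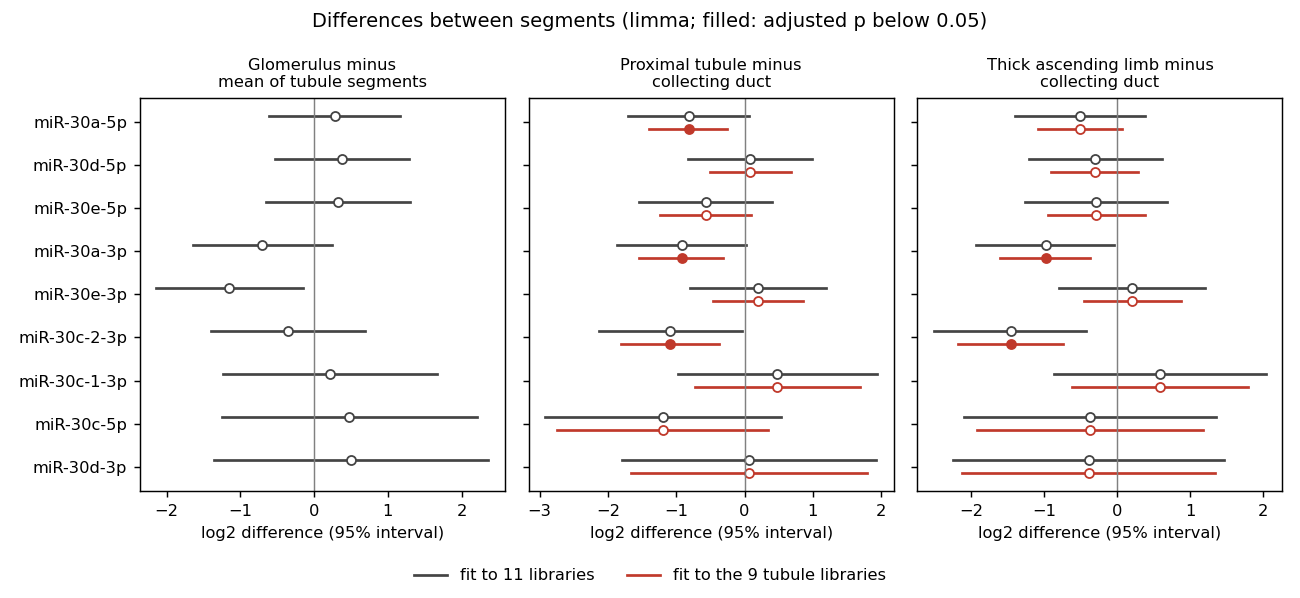
Log2 differences of the 9 members (horizontal axes, limma estimates with 95% intervals) for glomerulus minus tubule segments, proximal tubule minus collecting duct and thick ascending limb minus collecting duct. Dark marks are the fit to 11 libraries, red marks the fit to the 9 tubule libraries, and filled points have an adjusted p below 0.05. Only red points of miR-30a-5p, miR-30a-3p and miR-30c-2-3p are filled.

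Ratios of members within a library, as printed, are free of library scaling. The permutation tests took log2(value + 1) of each arm, so for low members such as miR-30d-3p they keep some dependence on it. The ratio of miR-30a-5p to miR-30a-3p, the arms of 1 hairpin, was 11.4 and 21.6 in the glomerulus of rats 1 and 3. It was 7.42, 6.89 and 7.59 in proximal tubule of rats 1, 2 and 3, 9.87, 8.52 and 9.87 in thick ascending limb, and 7.86, 6.85 and 5.78 in collecting duct. Both glomerulus libraries lay above all 9 tubule libraries, and the thick ascending limb libraries lay above the other tubule libraries. In an exact permutation test of segment labels within rats, over 3456 arrangements, the ratio differed between segments (p = 0.00521, 0.0156 adjusted over the 3 arm pairs planned). Without the glomerulus library of rat 3 the exact p was 0.0625.

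The ratio of miR-30e-5p to miR-30e-3p was 2.94 and 2.86 in the glomerulus. It was 0.996, 0.683 and 0.751 in proximal tubule, 0.939, 0.840 and 1.10 in thick ascending limb, and 1.13, 1.44 and 1.63 in collecting duct. The 5p arm exceeded the 3p arm in both glomerulus libraries by more than in any tubule library, and every collecting duct library lay above every other tubule library. This pair was added after its values had been seen. Its exact permutation p was 0.00694, or 0.0174 adjusted over 5 arm pairs, and stayed between 0.00463 and 0.0417 when each library was left out. The sums of the endothelial and of the mesangial markers given above were also higher in the glomerulus than in the tubules, as deposited. Singly, limma called 2 of the 3 endothelial markers higher in the glomerulus against the 3 tubule segments. Against collecting duct it called 1 of them lower in the glomerulus and 0 higher. Of the 2 smooth muscle and mesangial markers 0 were called against the tubule segments. The part of these markers in both arm ratios was not tested.

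The arms of miR-30d showed no such order, with 5p to 3p ratios of 37.3 and 170 in the glomerulus, 51.3 to 110 in proximal tubule, 47.1 to 212 in thick ascending limb and 40.9 to 181 in collecting duct (exact permutation p = 1.00, added after the values were seen). The few reads of miR-30d-3p limit this ratio. For miR-30c the shared 5p arm was set against each 3p arm. The ratio of miR-30c-5p to miR-30c-1-3p was 0.651 ± 0.599 in the glomerulus, 0.360 ± 0.0275 in proximal tubule, 0.488 ± 0.238 in thick ascending limb and 1.00 ± 0.358 in collecting duct (exact permutation p = 0.319). The ratio to miR-30c-2-3p was 0.122 ± 0.0616, 0.0772 ± 0.00510, 0.171 ± 0.119 and 0.0694 ± 0.0123 in the same order (exact permutation p = 0.306), and the p was 0.00926 without the thick ascending limb library of rat 3.

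The 3p arms of the miR-30c hairpins together stood 4.90 to 25.5 times above their shared 5p arm. miR-30c-2-3p alone exceeded miR-30c-5p in every library, but miR-30c-1-3p lay below it in 3, the glomerulus library of rat 1 and the collecting duct libraries of rats 2 and 3, where the 5p arm was 1.07, 1.15 and 1.26 times as high. How the authors counted reads that match both loci is not given in the sources used here, so the level of miR-30c-5p is uncertain. The 15 miRNAs of the table with 2 or more loci in RefSeq had a median value of 21.8, against 23.4 for the 157 with 1 locus. These are different miRNAs with levels of their own, so the medians cannot show whether reads matching several loci were lost.

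The miR-30c 3p arms, 1 from chromosome 9 and 1 from chromosome 5, were compared within each library, a ratio of mature arms and not of the output of the loci. The ratio of miR-30c-2-3p to miR-30c-1-3p was 4.70 ± 2.54 in the glomerulus, 4.67 ± 0.449 in proximal tubule, 3.51 ± 1.49 in thick ascending limb and 14.5 ± 5.44 in collecting duct. The collecting duct libraries, at 9.48 to 20.3, lay above all 8 others, whose highest was 6.49. miR-30a-3p over miR-30e-3p, the other pair of 3p arms from these loci, was 2.31 ± 0.283 in the glomerulus, 1.33 ± 0.0910 in proximal tubule, 1.27 ± 0.0558 in thick ascending limb and 3.03 ± 1.14 in collecting duct. Its collecting duct libraries, at 2.03 to 4.28, overlapped the glomerulus and lay above the other tubule libraries. miR-30a-5p over miR-30d-5p was 4.73 ± 1.37 in the glomerulus, 3.48 ± 0.360 in proximal tubule, 5.63 ± 0.538 in thick ascending limb and 6.51 ± 0.773 in collecting duct. These ratios were chosen with the values known and were not tested.

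**Figure D5:**
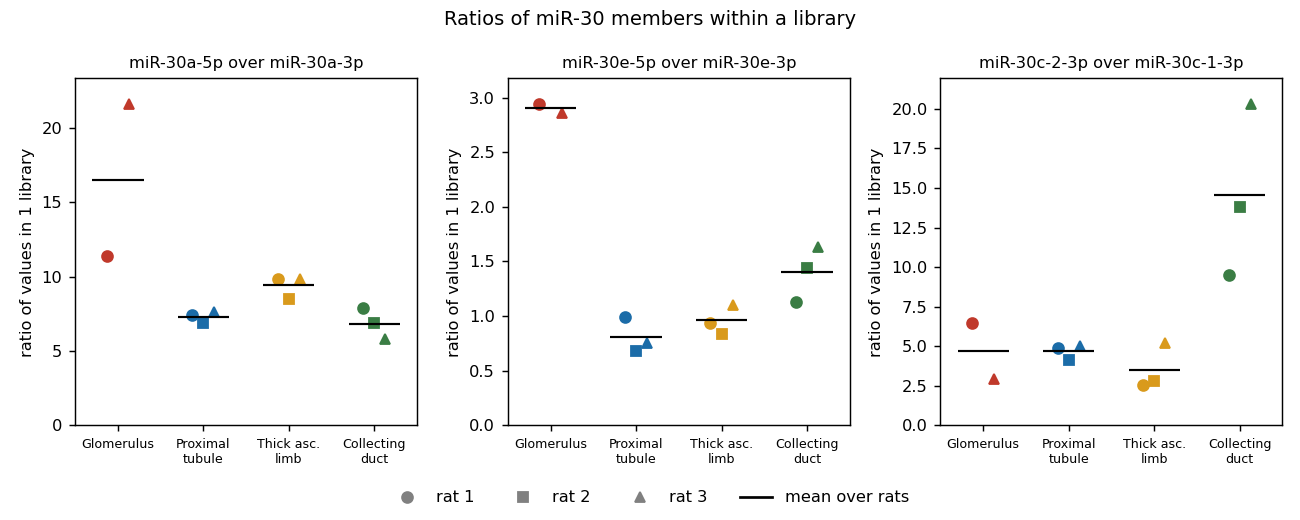
Ratios of miR-30 values within each library (vertical axes, linear from 0) by segment, with the marker shape giving the rat and the line the mean. The arm ratios of miR-30a and miR-30e are highest in the glomerulus libraries, at 11.4 and 21.6 and at 2.94 and 2.86, and the ratio of miR-30c-2-3p to miR-30c-1-3p is highest in collecting duct, at 9.48 to 20.3.

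Other miRNAs known from kidney were set beside the miR-30 members. Of 12 known from its epithelium, 9 were measured, and 7 of these fell in the glomerulus against the tubules, with a median log2 difference of -2.21 over the 9. They were miR-192-5p, miR-194-5p, miR-200a-3p, miR-200b-3p, miR-141-3p, miR-429 and miR-10a-5p. Of 3 miRNAs known, besides miR-30, from podocytes, 1 rose in the glomerulus, miR-23b-3p, and miR-24-3p and miR-26a-5p did not pass. The median of these 3 was 1.02 and that of the miR-30 members 0.28, over members between -1.15 and 0.50, all as deposited. The members' median was 0.89 with the same total per run, 0.77 with median of ratios and 0.87 after quantile normalization, and the lists were not recomputed under those scalings.

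The 5 other miRNAs whose levels followed the mean log2 value of the miR-30 5p arms most closely over the 11 libraries were chosen among 59 that averaged 100 or more. They were miR-27a-3p (Pearson r 0.89, Spearman rho 0.95), miR-27b-3p (0.87 and 0.87), miR-23a-3p (0.85 and 0.81), miR-126a-3p (0.78 and 0.74) and miR-25-3p (0.78 and 0.73). The libraries share their scaling in these correlations, and the 5p mean itself had an r of 0.38 with the log2 summed value of the library. That mean weighs the 4 arms alike, miR-30c-5p with its few reads included. In the glomerulus the log2 SD of miR-30c-5p between rats was 1.45. It was 0.125, 0.294 and 0.362 for miR-30a-5p, miR-30d-5p and miR-30e-5p.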

How the data were processed

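The table holds a TMM-normalized signal per miRNA and run, deposited by the authors after low miRNAs were filtered out, per its file name. Reads were 50 bp single ends. The submitters' processing notes name Bowtie 1.0.0, Bowtie2 2.2.5, Partek 6.0 and the build rn6. Values were used as deposited. Of 48 labelled runs, 44 were used. Reads were estimated from the step between low values: members lay on whole reads within 0.03 in every run with up to 1000 reads, as did 95.8% of all such values. No count test was run, and intervals are those of the linear model.

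Tests used limma 3.58.1 in R 4.3.3 on log2(value + 1), averaged over 4 runs, with segment and rat as terms, a variance trend and two-sided Benjamini-Hochberg adjusted p over 188 miRNAs. The fit left 5 residual degrees of freedom and placed each miRNA's variance on the abundance trend, so that errors do not follow a miRNA's own spread. Arm ratios had exact two-sided permutation tests in Python 3.11.15 with numpy 2.4.6. Rats entered as a block because segments share animals. Deviations of libraries of 1 rat had a median correlation of 0.083 over 15 pairs, against -0.067 over 30 pairs of different rats. The members and lists were chosen with earlier results of these data known. The rule for likeness took 5 miRNAs with a mean of at least 100 and the highest Pearson r with the 5p arms. The functions were tested on simulated data. Alternatives were pseudocounts of 0.5 and 5, a minimum mean of 10, 3 rescalings, no variance trend, array weights by segment, no replicate block, each flow cell alone, each library left out, and the 9 tubule libraries alone. Variations of the tubule fit, and the arm pairs of miR-30d and miR-30e, were added after the values were seen. Sequences and positions are from RefSeq, assembly GRCr8, a build other than that of the reads.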

Additional observations from a re-analysis of the deposited data

How the results depend on the processing

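Counts of members called were 0 of 9 in each of the 8 comparisons as reported. With the same total per run they were 4 for the F-test, 3 for glomerulus against tubules, 3 for proximal tubule against glomerulus, 2 for proximal tubule against collecting duct, 2 for glomerulus against thick ascending limb and 2 for glomerulus against collecting duct. With median of ratios they were 5, 3, 3, 3, 2 and 2 in that order, and 1 for thick ascending limb against collecting duct. After quantile normalization they were 1 for the F-test, 2 for proximal tubule against glomerulus and 3 for proximal tubule against collecting duct. Over all miRNAs, proximal tubule against glomerulus had 26 higher and 7 lower as reported. It had 29 and 21 with the same total, 29 and 22 with median of ratios and 22 and 20 after quantile normalization. Proximal tubule against collecting duct had 11 and 8 as reported, then 25 and 13, 19 and 22, and 19 and 19 in that order. Glomerulus against collecting duct had 7 and 21, then 31 and 19, 22 and 22, and 24 and 19. Array weights gave 1 for the F-test, 3 for proximal tubule against collecting duct and 1 for thick ascending limb against collecting duct, with a weight of 0.277 for the glomerulus. With no replicate block, 1 member was called in glomerulus against tubules (miR-30e-3p), 1 in proximal tubule against glomerulus (miR-30e-3p) and 1 in glomerulus against collecting duct (miR-30a-3p), and no other count changed. Flow cell A alone gave 1 for glomerulus against collecting duct. The 9 tubule libraries alone gave 3 for proximal tubule against collecting duct and 2 for thick ascending limb against collecting duct. Leaving out 1 library gave 0 to 2 for the F-test, 0 to 3 for glomerulus against tubules, 0 to 1 for proximal tubule against glomerulus, 0 to 3 for proximal tubule against collecting duct, 0 to 1 for glomerulus against thick ascending limb, 0 to 3 for glomerulus against collecting duct and 0 to 2 for thick ascending limb against collecting duct. Every count above 0 came without 1 of the glomerulus libraries, and the lone library left is then assumed to vary like the other segments. Pseudocounts, the minimum mean, flow cells B, C and D and no variance trend left all counts at 0. In the tubule fit, proximal tubule against thick ascending limb gave 1 member with the same total, 2 with median of ratios and 3 after quantile normalization, always lower in the proximal tubule and including miR-30a-5p. Proximal tubule against collecting duct gave 0 with no variance trend and 0 to 3 without 1 library. Thick ascending limb against collecting duct gave 1 with median of ratios, 0 after quantile normalization, 0 with no variance trend and 0 to 2 without 1 library. With no replicate block the tubule counts stayed at 0, 3 and 2. Where no calls over all miRNAs stand beside these counts, they are not read as a result about the members.

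Some differences that were not called changed sign. In glomerulus against tubules, miR-30c-2-3p was 0.26 with the same total, 0.14 with median of ratios, 0.20 after quantile normalization and -1.41 to 0.71 without 1 library. miR-30c-5p was -0.46 in flow cell D and -0.56 to 1.52 without 1 library, and miR-30d-3p was -0.92 to 1.93. In proximal tubule against collecting duct, miR-30d-3p was -0.24 after quantile normalization, -0.44 in flow cell A and -0.71 to 1.10 without 1 library. miR-30d-5p was -0.17 after quantile normalization, -0.04 in flow cell D and -0.10 to 0.25 without 1 library, and miR-30e-3p was -0.08 to 0.42. The exact p of the miR-30a arm ratio was 0.00231 to 0.0625 without 1 library, that of miR-30c-5p over miR-30c-1-3p 0.146 to 0.660 and that over miR-30c-2-3p 0.00926 to 0.660. Over the alternatives of single members, 510 values kept direction and side of the threshold, 38 became called and 32 calls of the tubule fit were lost. The causes were not tested. Reads limit miR-30c-5p and miR-30d-3p, and 2 glomerulus libraries limit every comparison with that segment.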
